A study of Mus musculus with 6 samples.

Results

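The mitochondrial protein import genes were examined as a group of 37 genes, among the 24940 genes of the deposited expression table. They were chosen by name, with earlier results of these data known: every symbol that begins with Timm or Tomm, together with Pam16, Dnajc19, Grpel1, Grpel2, Hspa9, Hspd1, Hspe1, Samm50, Mtx1 and Mtx2. Of these, 35 passed the filter on low values and were tested. Timm8a2 and Tomm20l did not pass it, and both are accounted for with their own complexes. Nearly all mitochondrial proteins are encoded in the nucleus, made in the cytosol and carried into the organelle as precursors. They enter through the TOM complex of the outer membrane. From there the TIM23 complex and its ATP-driven motor bring proteins with a cleavable presequence into the matrix, small TIM chaperones hand carrier proteins to the TIM22 complex of the inner membrane, and the SAM complex inserts beta-barrel proteins into the outer membrane. Osteoclasts, the bone-resorbing cells that form by fusion of macrophage precursors, are known to be rich in mitochondria.

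RNA was sequenced from mouse bone marrow-derived macrophages (BMMs), the osteoclast precursors, under 3 conditions with 2 libraries each. The first group received RANKL (100 ng/mL), the cytokine that drives osteoclast formation, together with LEA (10 μg/mL), a fraction of a water extract of the shiitake mushroom Lentinula edodes. The second received RANKL (100 ng/mL) alone, and the third, called no RANKL, received neither. M-CSF (30 ng/mL), the survival factor of these cells, is named in the culture protocol of BMMs for all groups. The donor mice were 6 to 8 weeks old, and the labels name the strain as C57BL/6 whereas the study's methods name ICR males. The sources used here do not state, for the sequenced cultures, the harvest time of the RNA, the vehicle added to cells without LEA (a signalling assay of the study used DMSO) or whether the 2 libraries of a group came from separate cultures or mice. The p-values thus rest on library-to-library spread, which may be technical. Each library holds bulk RNA of all cells in a culture.

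The libraries held 46380000 to 49590000 reads each, of which 36610000 to 40030000 fell on the listed genes. The osteoclast markers matched the labels: the summed level of the 10 genes was 2593 to 2734 FPKM with RANKL + LEA, 5206 to 6044 FPKM with RANKL and 28.1 to 29.8 FPKM with no RANKL. The summed level of the 8 macrophage markers in the table was 5672 to 7251 FPKM with RANKL + LEA, 3710 to 4400 FPKM with RANKL and 9907 to 13491 FPKM with no RANKL. Most of this sum was Lyz2, with means of 5269 FPKM with RANKL + LEA, 2850 FPKM with RANKL and 9831 FPKM with no RANKL. Cd68 went the other way, with 616 and 583 FPKM with RANKL against 515 and 568 FPKM with no RANKL. The other macrophage markers were lower with RANKL than with no RANKL. Markers of T and NK cells, B cells and erythroid cells summed to at most 0.308 FPKM in any library, with Cd3e, Cd8a, Cd79a and Hbb-bs below 0.1 FPKM in all of them. Markers of neutrophils summed to 1.13 to 1.73 FPKM with RANKL + LEA, 0.406 to 0.602 FPKM with RANKL and 3.19 to 3.90 FPKM with no RANKL. Osteoblast and stroma markers summed to 4.67 to 6.37 FPKM with RANKL + LEA, 3.90 to 4.05 FPKM with RANKL and 7.32 to 7.55 FPKM with no RANKL. Endothelial markers summed to 3.35 to 3.75 FPKM with RANKL + LEA, 2.88 to 2.90 FPKM with RANKL and 1.01 to 1.09 FPKM with no RANKL. Most of this sum was Kdr, with means of 3.35 FPKM with RANKL + LEA, 2.76 FPKM with RANKL and 0.613 FPKM with no RANKL. Cdh5 went the other way, with means of 0.165, 0.0615 and 0.364 FPKM in the same order. Pecam1 was near 0 in all groups, and Tek was listed at 0. The part of cell composition in the levels of the import genes was not tested. Here as in any bulk sample, more cells of a type and more RNA per cell cannot be told apart.

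The import genes were well expressed in these cells. FPKM, the fragments counted per kilobase of exon, scaled to the library's mapped reads, allows for transcript length, so levels of different genes can be set side by side. The mean level over the 6 libraries ran from 4.16 FPKM for Grpel2, a nucleotide exchange factor of the import motor, to 139.7 FPKM for Hspd1, the matrix chaperonin Hsp60. The median of the 35 tested import genes was 26.3 FPKM, against 8.16 FPKM for all 11905 tested genes. The lowest tested member in reads was Timm9, with 208 reads in 1 library, and the highest was Hspd1, with 22246. Summed over all members, the level was 1375 and 1246 FPKM with RANKL + LEA, 1609 and 1547 FPKM with RANKL and 861 and 985 FPKM with no RANKL. The RANKL libraries lay highest and the no RANKL libraries lowest, with the RANKL + LEA libraries between them and no overlap between groups.

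**Figure D1:**
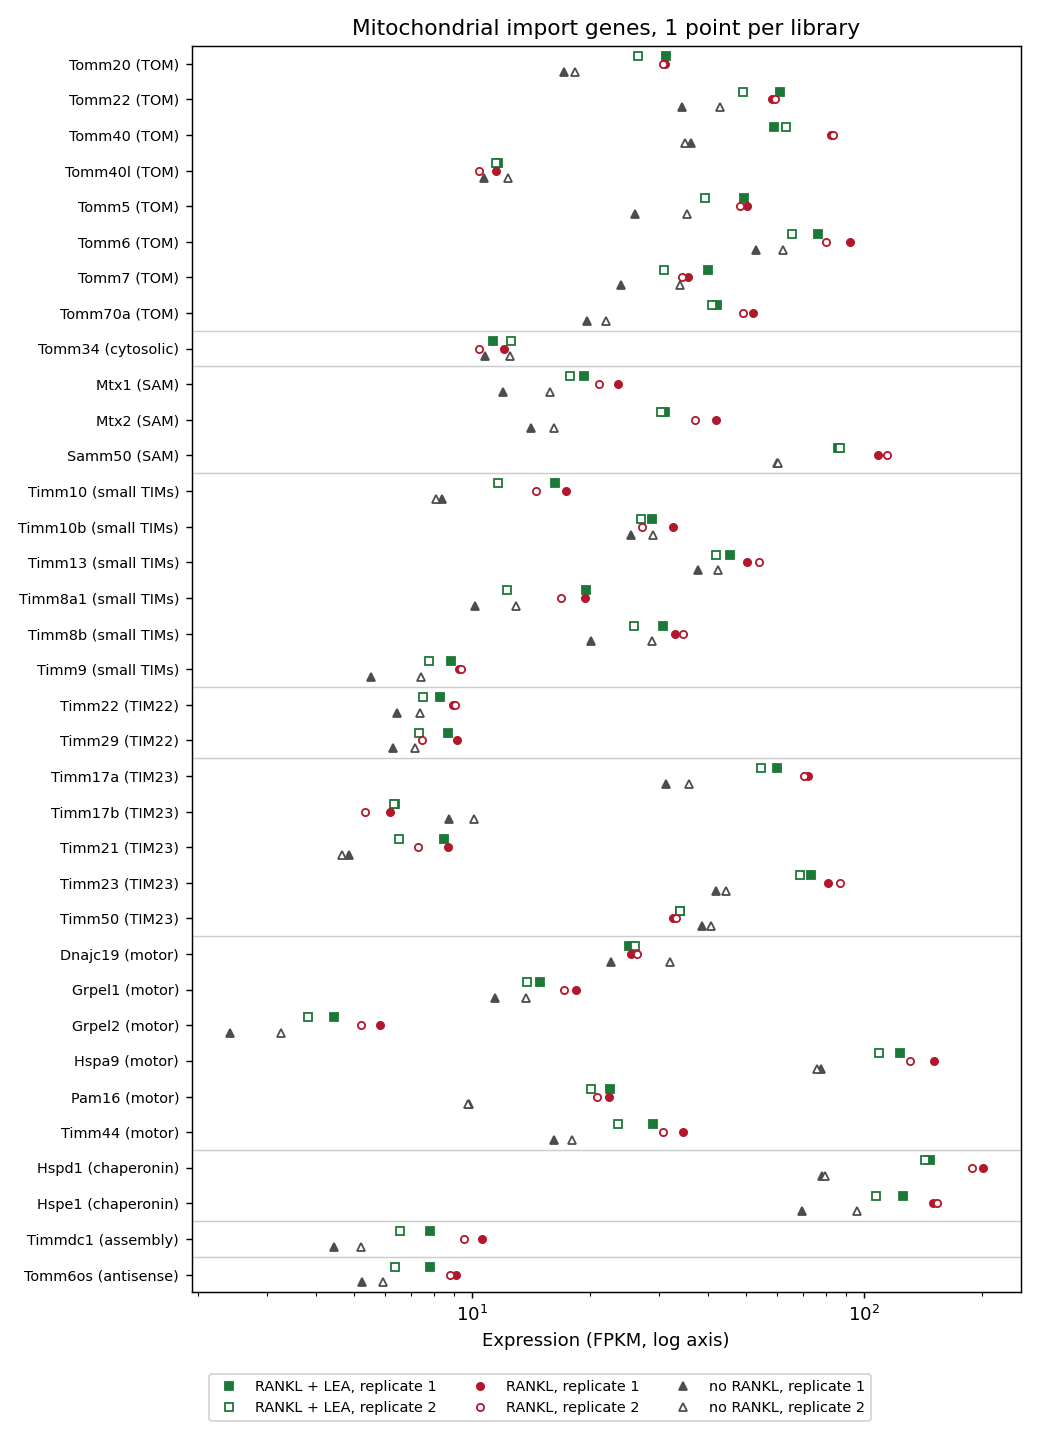
Level of each of the 35 tested import genes in every library, in FPKM on a log axis, grouped by complex, with squares for RANKL + LEA, circles for RANKL and triangles for no RANKL, filled for replicate 1 and open for replicate 2. Most triangles lie left of the other symbols, whereas Timm17b and Timm50 have theirs on the right.

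To see how RANKL moved these genes, the RANKL libraries were compared with the no RANKL libraries. RANKL raised 22 of the 35 tested import genes and lowered 1, Timm17b (limma). A gene was called when its Benjamini-Hochberg adjusted p, taken over all tested genes, was below 0.05 and it moved by 1.5-fold or more. Among all tested genes, 17.8% were called higher and 17.8% lower. By the adjusted p alone 26 members were higher, against 25% of all tested genes, and 2 were lower, against 24.3%. A log2 fold change below 0 was seen in 5 members, against 49.9% of all tested genes. The median log2 fold change of the import genes was 0.69, with quartiles of 0.38 and 0.95, against 0.00 for all tested genes. Both RANKL libraries lay above both no RANKL libraries for 29 members, against 37.9% of all tested genes, and below for 2, against 37.1%. The rises ran from 0.59 for Tomm6 to 1.37 for Mtx2 on the log2 scale, and Timm9, at 0.54, lay just under the fold limit. The no RANKL replicate 1 library was lower than replicate 2 for 30 of the 35 members, against 66.5% of all tested genes. Without that replicate the median of the members was 0.49, and without replicate 2 it was 0.83.

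The members with the largest rises were Mtx2, Hspd1 and Tomm70a, which act at different steps of import. Mtx2, an outer membrane metaxin that works with the SAM complex, had 31.00 and 30.3 FPKM with RANKL + LEA, 41.97 and 37.03 FPKM with RANKL and 14.1 and 16.2 FPKM with no RANKL. Its log2 fold change for RANKL was 1.37 ± 0.12 (SE, adjusted p = 4.1e-05, limma). Hspd1 folds newly imported proteins in the matrix together with its co-chaperonin Hspe1. Its level was 147 and 143 FPKM in the RANKL + LEA libraries, 201.1 and 189 FPKM in the RANKL libraries and 78.1 and 79.3 FPKM in the no RANKL libraries, and its log2 fold change for RANKL was 1.31 ± 0.09 (SE, adjusted p = 1.7e-05, limma). Tomm70a, the receptor for hydrophobic precursors such as metabolite carriers, had 42.3 and 41.01 FPKM with RANKL + LEA, 51.99 and 49.1 FPKM with RANKL and 19.6 and 21.9 FPKM with no RANKL, a log2 fold change of 1.28 ± 0.10 (SE, adjusted p = 3.2e-05, limma). In all 3 genes the RANKL + LEA libraries lay between the other groups, with no overlap on either side.

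The DNA before the start sites of these genes is shown, with that of the Timm17a and Timm17b pair, which moved in opposite directions. Whether its letters bear on the moves of these genes was not tested. All windows are RefSeq sequence of mouse build GRCm38.p6, 5′ to 3′, covering the 250 bases before the start, and capitals mark 3 kinds of letters read on either strand. They are the ETS letters CCGGAAG, the CCAAT box in the Timm17 windows and, in the shared Hspd1 and Hspe1 window, a heat shock element. The window of Mtx2 is chr2:74825562-74825811 on the plus strand, that of Tomm70a chr16:57121464-57121713 on the plus strand, that of Timm17a chr1:135313738-135313987 on the minus strand and that of Timm17b chrX:7899086-7899335 on the plus strand. Hspd1 (minus strand) and Hspe1 (plus strand) start back to back, and all 215 bases between their starts, chr1:55087933-55088147, are given on the plus strand.
Mtx2: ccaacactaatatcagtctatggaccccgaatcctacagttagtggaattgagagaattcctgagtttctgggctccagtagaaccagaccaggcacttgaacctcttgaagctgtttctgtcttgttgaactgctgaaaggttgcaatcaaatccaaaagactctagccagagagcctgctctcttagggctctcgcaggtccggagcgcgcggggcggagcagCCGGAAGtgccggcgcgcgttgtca
Tomm70a: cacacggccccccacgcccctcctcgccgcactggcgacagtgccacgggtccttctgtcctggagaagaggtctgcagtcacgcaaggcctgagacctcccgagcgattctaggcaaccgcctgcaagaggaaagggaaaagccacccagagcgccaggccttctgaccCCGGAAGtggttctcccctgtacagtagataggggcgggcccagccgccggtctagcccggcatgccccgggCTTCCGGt
Timm17a: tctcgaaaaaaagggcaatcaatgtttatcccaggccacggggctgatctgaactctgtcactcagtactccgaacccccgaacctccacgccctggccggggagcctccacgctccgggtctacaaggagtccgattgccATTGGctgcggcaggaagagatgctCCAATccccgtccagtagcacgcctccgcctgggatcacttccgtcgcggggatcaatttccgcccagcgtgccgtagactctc
Timm17b: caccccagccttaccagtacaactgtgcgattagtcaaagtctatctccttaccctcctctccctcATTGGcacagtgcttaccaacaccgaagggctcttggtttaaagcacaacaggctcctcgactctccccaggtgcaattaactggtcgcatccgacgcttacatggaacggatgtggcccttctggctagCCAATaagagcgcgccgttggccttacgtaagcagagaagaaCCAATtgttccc
Hspd1-Hspe1: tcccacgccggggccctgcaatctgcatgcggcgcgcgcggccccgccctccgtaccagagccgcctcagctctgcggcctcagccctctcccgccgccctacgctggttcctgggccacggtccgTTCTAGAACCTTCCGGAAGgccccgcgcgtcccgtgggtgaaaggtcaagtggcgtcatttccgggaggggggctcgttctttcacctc
In the Hspd1 and Hspe1 window the heat shock and ETS letters overlap in a single capital run. Such windows were matched for 32 of the 37 members; those of Tomm40l, Tomm7, Timm21, Grpel2 and Hspa9 were not used here. ETS letters stood in 14 of the 32 (43.8%), against 6.91% of all 32851 RefSeq promoters, expressed here or not, and 14.3% of promoters of tested genes. Each member was held to 1 window, a step not taken for the other promoters. The heat shock letters stood in 3 (9.38%), those of Hspd1, Hspe1 and Timm9, against 0.466% of all promoters and 0.398% of those of tested genes. Since the windows of Hspd1 and Hspe1 overlap and hold the same heat shock element, counting them as 1 window gave 13 of 31 for ETS (41.9%) and 2 of 31 for heat shock (6.45%). The ETS share was 47.4% among the 19 matched members called higher with RANKL and 38.5% among the 13 others. These others include Timm8a2, which holds the letters, and Tomm20l, which does not, and neither was tested. Shares for the E-box (CACGTG) were 12.5% of members, 6.02% of all promoters and 8.61% of those of tested genes, and for the CCAAT box 31.3% of members, 33.9% of all promoters and 35.6% of those of tested genes. The NRF1 element stood in 6.25% of members, 3.74% of all promoters and 8.41% of those of tested genes. The AP-1 letters (TGANTCA) stood in 9.38% of members, 6.75% of all promoters and 4.59% of those of tested genes. These are matches of letters, and binding was not measured.

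In the TOM complex, the entry gate, RANKL raised 6 of the 8 tested members (75%), against 17.8% of all tested genes. Tomm40, the beta-barrel channel itself, lies at chr7:19701313-19715429 (mm10, minus strand) and had 58.9 and 63.1 FPKM with RANKL + LEA, 82.6 and 83.4 FPKM with RANKL and 36.2 and 35.01 FPKM with no RANKL. Its log2 fold change for RANKL was 1.22 ± 0.09 (SE, adjusted p = 2.7e-05, limma), and its 3 groups did not overlap. Tomm20, the receptor for presequences, had 31.2 and 26.6 FPKM in the RANKL + LEA libraries, 31.2 and 30.7 FPKM in the RANKL libraries and 17.1 and 18.3 FPKM in the no RANKL libraries and a log2 fold change of 0.80 for RANKL (adjusted p = 6.5e-04, limma). In this gene the RANKL + LEA and RANKL libraries overlapped, and both lay above no RANKL. Tomm22, the central receptor, rose by 0.61, and the small subunits Tomm5 and Tomm6 by 0.70 and 0.59, on the log2 scale. These were the less stable calls: without no RANKL replicate 1 the values were 0.45 for Tomm22 (adjusted p = 0.06), 0.48 for Tomm5 (adjusted p = 0.0559) and 0.47 for Tomm6 (adjusted p = 0.0465, limma), all under the fold limit. Without RANKL replicate 1, Tomm5 had 0.67 (adjusted p = 0.0638) and Tomm6 0.48 (adjusted p = 0.0566), and without RANKL replicate 2, Tomm22 had 0.60 (adjusted p = 0.0589) and Tomm5 0.73 (adjusted p = 0.0525, limma). Tomm6 also fell short of the fold limit with a pseudocount of 1 and under both other scalings. Tomm7, another small subunit, had 40.03 and 30.9 FPKM with RANKL + LEA, 35.6 and 34.4 FPKM with RANKL and 24.1 and 33.9 FPKM with no RANKL and did not pass the test, with a log2 fold change of 0.29 (adjusted p = 0.222, limma). Tomm40l, a paralogue of the channel, had 11.7 and 11.5 FPKM with RANKL + LEA, 11.5 and 10.4 FPKM with RANKL and 10.8 and 12.4 FPKM with no RANKL, so that its no RANKL libraries overlapped with both other groups (log2 fold change -0.07 for RANKL, adjusted p = 0.638, limma). Its span overlaps Apoa2 by 951 bases and Nr1i3 by 1043 bases on the other strand, and reads of both strands were counted. Tomm20l, a paralogue of Tomm20, was listed at 0 to 0.178 FPKM and was not tested.

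All 3 genes of the SAM and metaxin group rose with RANKL, where 17.8% of all tested genes were called higher. Samm50, the core of the beta-barrel insertion machinery, had 85.97 and 86.6 FPKM with RANKL + LEA, 109 and 115 FPKM with RANKL and 59.9 and 60.3 FPKM with no RANKL, with no overlap between groups. Its log2 fold change for RANKL was 0.89 ± 0.09 (SE, adjusted p = 1.2e-04, limma). Mtx1, the partner of Mtx2, had 19.3 and 17.8 FPKM in the RANKL + LEA libraries, 23.6 and 21.03 FPKM in the RANKL libraries and 12.03 and 15.8 FPKM in the no RANKL libraries, which gave a log2 fold change of 0.69 for RANKL (adjusted p = 0.00578, limma). Without no RANKL replicate 1 it was 0.49 (adjusted p = 0.0395), under the fold limit.

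The small TIM genes encode the chaperones of the intermembrane space. Of the 6 tested small TIM genes, RANKL raised Timm10 and Timm8a1 (33.3%, against 17.8% of all tested genes), and the median log2 fold change of the 6 was 0.51. Timm10, which forms a ring-shaped hexamer with Timm9, had 16.3 and 11.7 FPKM with RANKL + LEA, 17.4 and 14.6 FPKM with RANKL and 8.400 and 8.08 FPKM with no RANKL, a log2 fold change of 0.94 for RANKL (adjusted p = 0.00234, limma). Its partner Timm9 had 8.83 and 7.75 FPKM in the RANKL + LEA libraries, 9.27 and 9.38 FPKM in the RANKL libraries and 5.51 and 7.41 FPKM in the no RANKL libraries and missed the fold limit at 0.54 (adjusted p = 0.0223). Timm8a1, a partner of Timm13 in the second hexamer, had 19.6 and 12.3 FPKM with RANKL + LEA, 19.5 and 16.9 FPKM with RANKL and 10.2 and 12.9 FPKM with no RANKL, with a log2 fold change of 0.66 (adjusted p = 0.0386, limma). That call was lost without no RANKL replicate 1 (0.48, adjusted p = 0.183), without RANKL replicate 1 (0.55, adjusted p = 0.189) and without RANKL replicate 2 (0.76, adjusted p = 0.0977, limma). It was also lost without the filter on low values (adjusted p = 0.109) and without the trend in the variance (adjusted p = 0.0708, limma). The table lists 2 genomic copies for Timm8a1, so its reads may be split or shared, and it places the gene on the plus strand where RefSeq has the minus strand, which was used for its promoter window. Timm13, Timm8b and Timm10b were not called, with log2 fold changes of 0.38, 0.48 and 0.13. Overlaps of 45 to 110 bases with genes on the other strand touch Timm13, Timm9, Timm8b and Timm29. Timm8a2 was listed at 0.046 FPKM in 1 RANKL + LEA library and at 0 in the other 5. Neither tested gene of the TIM22 complex passed both limits. Timm22, its channel, had 8.29 and 7.498 FPKM with RANKL + LEA, 8.94 and 9.05 FPKM with RANKL and 6.43 and 7.36 FPKM with no RANKL, and its log2 fold change of 0.38 (adjusted p = 0.0309, limma) lay under the fold limit. Timm29, a subunit known from human cells, had a log2 fold change of 0.30 (adjusted p = 0.133).

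The TIM23 complex was the only one of these complexes in which RANKL moved called members in both directions. Timm23, the presequence channel of the inner membrane, had 73.2 and 68.8 FPKM with RANKL + LEA, 81.02 and 87.03 FPKM with RANKL and 41.9 and 44.6 FPKM with no RANKL, a log2 fold change of 0.96 ± 0.10 for RANKL (SE, adjusted p = 1.3e-04, limma). Timm17a, which lines the translocation path beside Timm23, had 59.9 and 54.6 FPKM in the RANKL + LEA libraries, 72.04 and 70.3 FPKM in the RANKL libraries and 31.2 and 35.9 FPKM in the no RANKL libraries, a log2 fold change of 1.09 ± 0.11 (SE, adjusted p = 1.1e-04, limma). Both genes lay highest with RANKL, lowest with no RANKL and between with RANKL + LEA, with no overlap. Timm17b is the X-linked paralogue that can take the place of Timm17a in the complex. It had 6.37 and 6.32 FPKM with RANKL + LEA, 6.16 and 5.34 FPKM with RANKL and 8.73 and 10.1 FPKM with no RANKL and fell with RANKL by 0.70 on the log2 scale, with a standard error of 0.13 (adjusted p = 0.00262, limma). Its RANKL + LEA libraries lay above both RANKL libraries and below both no RANKL libraries. The transcript counted for Timm17b is one that RefSeq classes as noncoding, and how its reads divide among transcripts was not tested. Timm50, the receptor that takes presequences from TOM, had 33.9 and 33.9 FPKM with RANKL + LEA, 32.6 and 33.2 FPKM with RANKL and 38.7 and 40.7 FPKM with no RANKL. Its log2 fold change for RANKL was -0.27 (adjusted p = 0.0444, limma), past the p limit but under the fold limit. Timm21, which links TIM23 to TOM and to the respiratory chain, had 8.46 and 6.51 FPKM in the RANKL + LEA libraries, 8.69 and 7.28 FPKM in the RANKL libraries and 4.86 and 4.66 FPKM in the no RANKL libraries and rose with RANKL by 0.73 on the log2 scale (adjusted p = 0.00584, limma). It lies within the span of Fbxo15 on the other strand, which was listed at 0 to 0.175 FPKM.

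Because paralogues and partners share a complex, the ratios of 11 pairs were taken within each library, as a description without a test. The 5 plotted were chosen with the values known. The ratio of Timm17a to Timm17b was 9.40 and 8.64 with RANKL + LEA, 11.7 and 13.2 with RANKL and 3.57 and 3.55 with no RANKL. Timm23 stood to Timm50 at 2.16 and 2.03 with RANKL + LEA, 2.49 and 2.62 with RANKL and 1.08 and 1.10 with no RANKL. The ratio of Tomm40 to Tomm40l was 5.04 and 5.48 with RANKL + LEA, 7.18 and 8.00 with RANKL and 3.37 and 2.83 with no RANKL. In the 3 ratios above the RANKL libraries were highest, the RANKL + LEA libraries next and the no RANKL libraries lowest, with no overlap. The ratio of Grpel1 to Grpel2, the paired nucleotide exchange factors of the motor, ran the other way: 3.36 and 3.62 with RANKL + LEA, 3.17 and 3.30 with RANKL and 4.77 and 4.22 with no RANKL. Pam16 stood to Dnajc19 at 0.897 and 0.775 with RANKL + LEA, 0.878 and 0.789 with RANKL and 0.435 and 0.305 with no RANKL, so that RANKL + LEA and RANKL overlapped and lay above no RANKL. The other 6 pairs did not follow 1 pattern. Tomm70a to Tomm20 had the order of the 3 ratios above, with 1.36 and 1.54 with RANKL + LEA, 1.67 and 1.60 with RANKL and 1.15 and 1.2 with no RANKL. Pam16 to Timm44 was highest with RANKL + LEA, at 0.776 and 0.854, against 0.648 and 0.679 with RANKL and 0.608 and 0.543 with no RANKL. Timm9 to Timm10 was lower with RANKL than with no RANKL, and Hspd1 to Hspe1 and Timm8a1 to Timm13 were higher, while in these 3 pairs RANKL + LEA and RANKL overlapped. Timm8b to Timm13 overlapped between all groups.

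**Figure D2:**
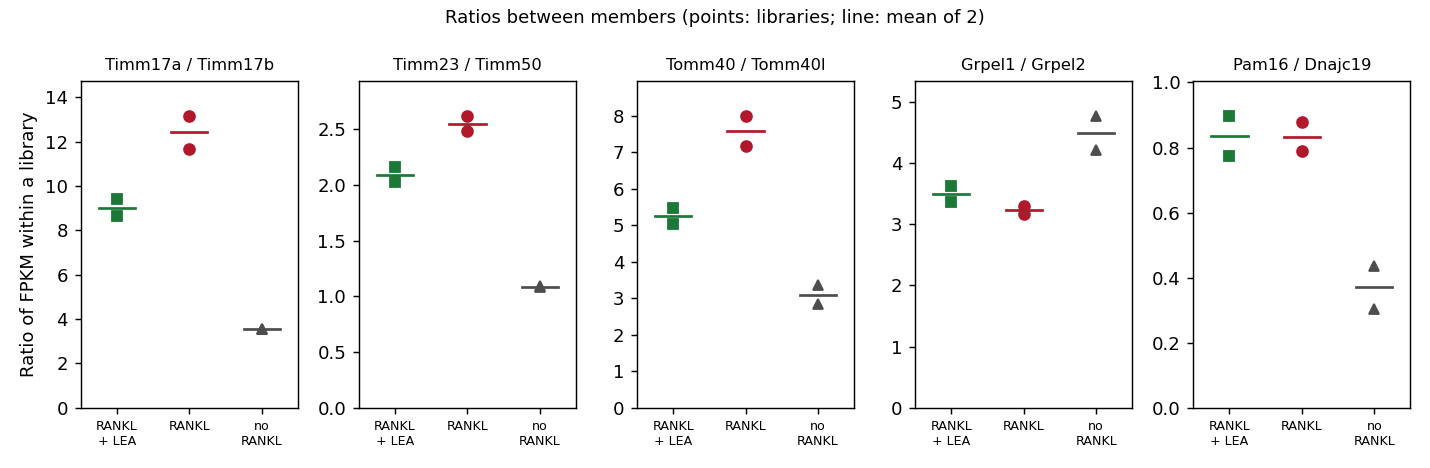
Ratio of FPKM values of 5 of the 11 gene pairs within each library, with groups from left to right as RANKL + LEA, RANKL and no RANKL, 1 point per library and a line at the mean of 2. The Timm17a to Timm17b ratio was 9.40 and 8.64 with RANKL + LEA, between 11.7 and 13.2 with RANKL and 3.57 and 3.55 with no RANKL.

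In the import motor, RANKL raised 4 of 6 genes (66.7%), against 17.8% of all tested genes. Hspa9, the mitochondrial Hsp70 (mortalin) that pulls precursors through the channel, had 123 and 109 FPKM with RANKL + LEA, 151 and 131 FPKM with RANKL and 77.8 and 76.1 FPKM with no RANKL, a log2 fold change of 0.87 for RANKL (adjusted p = 4.5e-04, limma). Timm44, which tethers Hspa9 to the channel, had 29.01 and 23.6 FPKM in the RANKL + LEA libraries, 34.5 and 30.6 FPKM in the RANKL libraries and 16.2 and 17.97 FPKM in the no RANKL libraries and a log2 fold change of 0.93 (adjusted p = 7.4e-04, limma). Both had the RANKL + LEA libraries between the other groups. Pam16, the J-like regulator of Hspa9, had 22.5 and 20.2 FPKM with RANKL + LEA, 22.3 and 20.8 FPKM with RANKL and 9.84 and 9.76 FPKM with no RANKL, which gave a log2 fold change of 1.13 ± 0.11 for RANKL (SE, adjusted p = 8.0e-05, limma). Here the RANKL + LEA and RANKL libraries overlapped and both lay above no RANKL. Dnajc19, the J-domain protein that pairs with Pam16, had 25.1 and 26.02 FPKM in the RANKL + LEA libraries, 25.4 and 26.4 FPKM in the RANKL libraries and 22.6 and 32.03 FPKM in the no RANKL libraries, with all groups overlapping (log2 fold change -0.06 for RANKL, adjusted p = 0.795, limma). Grpel2, the least abundant tested member, had 4.44 and 3.82 FPKM with RANKL + LEA, 5.83 and 5.21 FPKM with RANKL and 2.41 and 3.25 FPKM with no RANKL and rose by 0.95 on the log2 scale (adjusted p = 0.00237, limma). Grpel1, its more abundant paralogue, had 14.9 and 13.8 FPKM in the RANKL + LEA libraries, 18.5 and 17.2 FPKM in the RANKL libraries and 11.5 and 13.7 FPKM in the no RANKL libraries, and at 0.50 (adjusted p = 0.0105) it stayed under the fold limit. The span of Grpel1 overlaps Tada2b on the other strand by 408 bases.

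Both matrix chaperonin genes rose with RANKL, where 17.8% of all tested genes were called higher. Hspe1, the lid of the Hspd1 barrel, had 126 and 108 FPKM with RANKL + LEA, 149.9 and 154 FPKM with RANKL and 69.7 and 96.1 FPKM with no RANKL, a log2 fold change of 0.89 ± 0.16 (SE, adjusted p = 0.00226, limma), beside 1.31 ± 0.09 for Hspd1. The Hspe1 groups did not overlap. The reference annotation names 5 pseudogenes of Hspd1, 7 pseudogenes or related sequences of Hspe1, and 1 each of Hspa9, Dnajc19 and Timm29, and no source used here says how reads with several matches were counted. The remaining 3 symbols of the list are not parts of a translocase. Timmdc1, an assembly factor of respiratory complex I in human cells, had 7.797 and 6.53 FPKM in the RANKL + LEA libraries, 10.59 and 9.56 FPKM in the RANKL libraries and 4.44 and 5.22 FPKM in the no RANKL libraries and rose with RANKL by 1.05 on the log2 scale (adjusted p = 5.3e-04, limma). Tomm6os, a transcript from the strand opposite Tomm6, rose by 0.67 (adjusted p = 0.00456, limma), but 777 bases of it overlap Tomm6 and both strands were counted, so reads of the pair cannot be told apart. Its value without no RANKL replicate 1 was 0.58 (adjusted p = 0.0369), just under the fold limit. Tomm34, a cytosolic partner of Hsp70 and Hsp90, had 11.3 and 12.6 FPKM with RANKL + LEA, 12.1 and 10.4 FPKM with RANKL and 10.8 and 12.5 FPKM with no RANKL, with overlapping groups and a log2 fold change of -0.05 for RANKL (adjusted p = 0.791, limma).

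**Figure D3:**
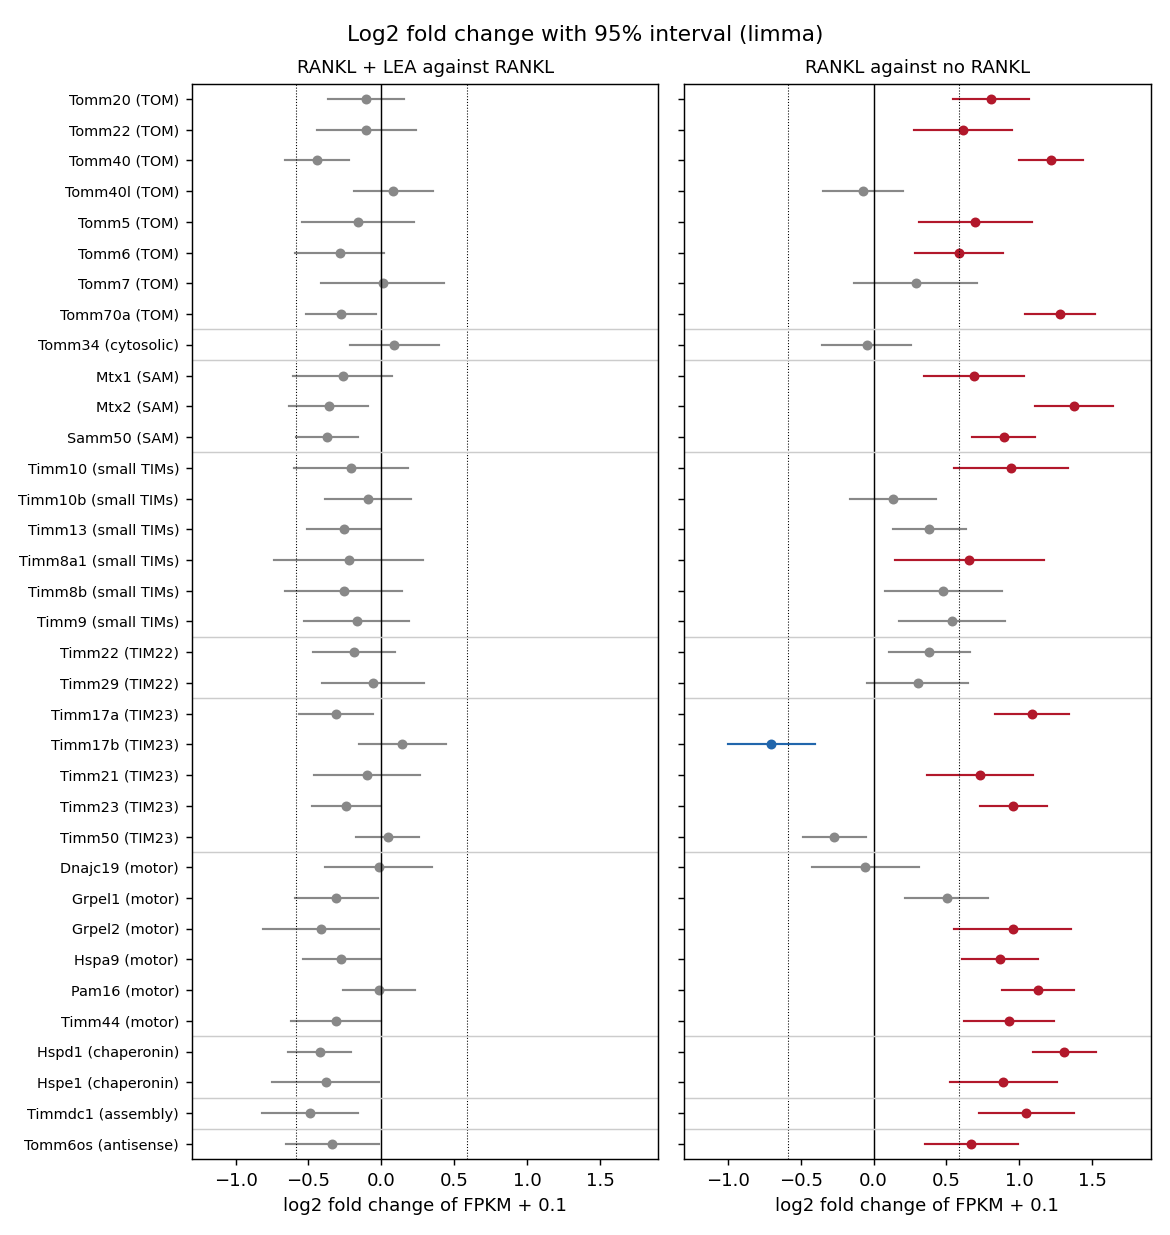
Log2 fold change of FPKM + 0.1 for each tested import gene, in RANKL + LEA against RANKL on the left and RANKL against no RANKL on the right, with 95% confidence intervals from limma, dotted lines at a 1.5-fold change, and red for genes called higher, blue for called lower and grey for no call. The values for RANKL + LEA against RANKL ran from -0.49 for Timmdc1 to 0.14 for Timm17b, and those for RANKL against no RANKL from -0.70 for Timm17b to 1.37 for Mtx2.

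The question of what LEA did to these genes in RANKL-treated cells was addressed by comparing the RANKL + LEA libraries with the RANKL libraries. No import gene passed both limits in either direction, where 4.54% of all tested genes were called higher and 1.77% lower. At an unadjusted p under 0.05 there were 15 members, all lower, where 8.16% of all tested genes were lower at that limit, and a weighted limma fit on reads recovered from the FPKM values (voom) also called 0. At the adjusted p limit alone, 3 members were lower with LEA, against 2.7% of all tested genes, and 0 were higher, against 5.93%. These were Tomm40, with a log2 fold change of -0.44 (95% interval -0.66 to -0.23, adjusted p = 0.0313), Hspd1, with -0.42 (-0.64 to -0.21, adjusted p = 0.0336), and Samm50, with -0.37 (-0.58 to -0.16, adjusted p = 0.0477, limma). In library values, Hspd1 had 147 and 143 FPKM with RANKL + LEA against 201.1 and 189 FPKM with RANKL. The differences were small but mostly of 1 sign: 30 of the 35 members had a log2 fold change below 0, against 41.9% of all tested genes, and the median was -0.24, against 0.05. Both RANKL + LEA libraries lay below both RANKL libraries for 20 members, against 20.6% of tested genes, and above for 3, against 30.1%. The 3 above were Timm17b, Timm50 and Tomm40l, whose log2 fold changes were 0.14, 0.04 and 0.08. The sign was not stable for Timm50, which had -0.01 under median-ratio scaling, or for Tomm7, which had 0.01 here, -0.05 under median-ratio scaling and -0.03 under quantile normalization. Without RANKL + LEA replicate 2 the median was -0.13, and without replicate 1 it was -0.32. Replicate 2 of this group was lower than replicate 1 for 31 members, and for 7420 of all 11905 tested genes.

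The members next in line by p were Timmdc1, Mtx2 and Timm17a. Timmdc1 had the lowest value, 7.797 and 6.53 FPKM with RANKL + LEA against 10.59 and 9.56 FPKM with RANKL, a log2 fold change of -0.49 with a 95% interval of -0.82 to -0.16 (adjusted p = 0.0744, limma). Mtx2 had -0.36 (-0.63 to -0.09, adjusted p = 0.099) and Timm17a -0.31 (-0.57 to -0.06, adjusted p = 0.127, limma). For Pam16 the value was -0.02, and its interval of -0.27 to 0.23 left room for a change of either sign well under the fold limit. For 14 of the 35 members the lower bound of the interval lay past a 1.5-fold decrease, so that their intervals include a decrease of that size. The RANKL libraries enter both comparisons, so the values of a gene in the 2 comparisons are not independent and no relation between them was tested.

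Set against cells that never saw RANKL, the RANKL + LEA libraries still had higher levels of many import genes. RANKL + LEA raised 12 of the 35 tested members over no RANKL and lowered 0, where 15.5% of all tested genes were called higher and 11.8% lower (limma). At the adjusted p limit alone 18 were higher, against 22.6% of all tested genes, and 1, Timm17b, lower, against 16.8%. Both RANKL + LEA libraries lay above both no RANKL libraries for 25 members, against 39.7% of all tested genes, and below for 2, against 31.1%. The 12 were Mtx2, Pam16, Tomm70a, Hspd1, Tomm40, Timm17a, Timm10, Timm23, Tomm20, Timm21, Timm44 and Hspa9. Pam16 had the largest log2 fold change, 1.11 (adjusted p = 1.4e-04), followed by Mtx2 at 1.01 (adjusted p = 3.3e-04) and Tomm70a at 1.001 (adjusted p = 2.0e-04, limma). This comparison shares its no RANKL libraries with that of RANKL alone. Under median-ratio scaling or quantile normalization 9 were called higher, without Hspa9, Timm21 and Timm44, whose values lay under the fold limit. Of all tested genes, 1649 and 1537 were called higher under these scalings, against 1846 without them. Members past the p limit alone included Samm50 with 0.52 (adjusted p = 0.00312) and Hspe1 with 0.51 (adjusted p = 0.0367, limma), both under the fold limit. Timm17b had -0.56 (adjusted p = 0.0106) and was called lower under median-ratio scaling (-0.62) and quantile normalization (-0.65). The median of the 35 was 0.51, against 0.06 for all tested genes, and it was 0.28 without no RANKL replicate 1. With 1 library left out, the median ran from 0.28 to 0.62 on the log2 scale. Grpel2, Hspe1, Mtx1, Timmdc1, Tomm22 and Tomm5 gained calls without no RANKL replicate 2. Timm21 and Timm44 lost their calls without no RANKL replicate 1 (adjusted p = 0.0526 and 0.0548), Timm21 and Hspa9 without no RANKL replicate 2 (adjusted p = 0.0646 for Timm21, and 0.58 on the log2 scale for Hspa9), and Timm10, Timm21, Timm44 and Hspa9 without RANKL + LEA replicate 1, at 0.50, 0.44, 0.47 and 0.51 on the log2 scale.

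By complex, the mean summed levels kept the same order of groups. The TOM genes summed to 371 and 327 FPKM with RANKL + LEA, 414 and 396 FPKM with RANKL and 221 and 262 FPKM with no RANKL. The TIM23 genes summed to 182 and 170.2 FPKM with RANKL + LEA, 200.5 and 203 FPKM with RANKL and 125 and 136 FPKM with no RANKL. The motor genes summed to 219 and 197 FPKM with RANKL + LEA, 257 and 231 FPKM with RANKL and 140.4 and 153 FPKM with no RANKL. In each the RANKL libraries lay highest and the no RANKL libraries lowest. The chaperonin pair summed to 273 and 251 FPKM with RANKL + LEA, 351 and 343 FPKM with RANKL and 148 and 175 FPKM with no RANKL, and the SAM group to 136 and 135 FPKM with RANKL + LEA, 174 and 173 FPKM with RANKL and 86.1 and 92.4 FPKM with no RANKL. The TIM22 genes, the lowest in sum, had 16.97 and 14.8 FPKM with RANKL + LEA, 18.1 and 16.5 FPKM with RANKL and 12.7 and 14.5 FPKM with no RANKL, and the small TIM genes summed to 149.7 and 127 FPKM with RANKL + LEA, 162 and 157 FPKM with RANKL and 107 and 129 FPKM with no RANKL. For TIM22 the RANKL + LEA and RANKL libraries overlapped, and for the small TIM genes the RANKL + LEA and no RANKL libraries did. The exons of 10 tested members total under 1000 bases. The median log2 ratio of replicate 2 to replicate 1 in these short members was -0.20 with RANKL + LEA, -0.05 with RANKL and 0.32 with no RANKL. In the 25 longer members it was -0.12 with RANKL + LEA, -0.10 with RANKL and 0.19 with no RANKL. The short members thus differed more between replicates in the RANKL + LEA and no RANKL groups but not with RANKL. All tested genes had the same pattern. Those under 1000 bases had medians of -0.15 with RANKL + LEA, -0.09 with RANKL and 0.23 with no RANKL. In the longer ones these were -0.06, -0.13 and 0.07.

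**Figure D4:**
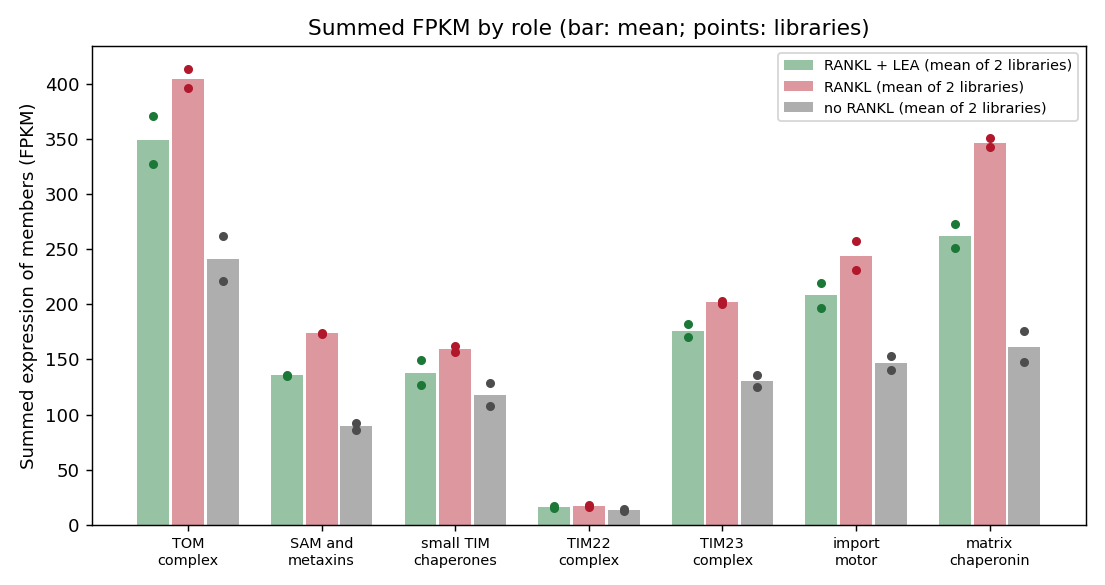
Summed FPKM of the members of each complex, with bars for the mean of 2 libraries, points for single libraries, and groups from left to right as RANKL + LEA, RANKL and no RANKL. The chaperonin pair stood near 262 FPKM on average with RANKL + LEA, 347 FPKM with RANKL and 162 FPKM with no RANKL.

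Other nuclear genes for mitochondrial proteins were read in the same way. Of 78 genes for mitochondrial ribosomal proteins, RANKL raised 37 (47.4%, against 17.8% of all tested genes) and lowered 0 (against 17.8%), with a median log2 fold change of 0.56. Of 45 tested Nduf genes, which encode subunits and assembly factors of respiratory complex I, it raised 28 (62.2%) and lowered 0, with a median of 0.73, beside 0.69 for the import genes. For RANKL + LEA against RANKL none of these genes passed both limits, where 4.54% of all tested genes were called higher and 1.77% lower. The medians were -0.14 for the ribosomal genes and -0.31 for the Nduf genes, beside -0.24 for the import genes. The differences between these lists were not tested. Of 32 further genes that act in import or in the processing and turnover of imported proteins, RANKL raised 10 (31.25%, nearer the 17.8% of all tested genes) and lowered 1, with a median of 0.37. Dnaja3, a matrix J-protein, had 27.3 and 24.04 FPKM with RANKL + LEA, 35.1 and 29.7 FPKM with RANKL and 12.6 and 14.1 FPKM with no RANKL, a log2 fold change of 1.27 for RANKL (adjusted p = 1.1e-04, limma). Afg3l2, a subunit of the matrix-facing AAA protease, had 1.05 (adjusted p = 1.9e-04), and Hscb, a co-chaperone of iron-sulphur cluster assembly, 0.87 (adjusted p = 4.7e-04, limma). Mtch1, an outer membrane insertase in human cells, was the one called lower, with 54.8 and 52.1 FPKM in the RANKL + LEA libraries, 48.8 and 44.8 FPKM in the RANKL libraries and 77.02 and 83.1 FPKM in the no RANKL libraries and a log2 fold change of -0.77 (adjusted p = 4.5e-04, limma). Among 8 genes of the MICOS and bridging complex, which shapes the cristae and binds SAM, RANKL raised 5 (62.5%), with a median of 0.75. Chchd3, one of its core subunits, had 49.1 and 52.5 FPKM with RANKL + LEA, 68.3 and 73.6 FPKM with RANKL and 28.1 and 28.1 FPKM with no RANKL, a log2 fold change of 1.33 (adjusted p = 2.0e-05, limma), and Apoo had 1.43 (adjusted p = 4.9e-04).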

How the data were processed

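RNA-seq reads of the 6 libraries were mapped by the authors to mouse genome mm10 with HISAT2 and quantified with HOMER. The authors deposited FPKM values, which per the file headers were counted over exons, on both strands, with 1 transcript kept per gene. No source used here gives tool versions. The table also holds 2 columns with the authors' own lists of changed genes, which were not used. The labels name TRIzol extraction, and the methods a column kit and a stranded library kit.

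From the deposited FPKM, log2(FPKM + 0.1) was fitted with limma 3.58.1 in R 4.3.3 (eBayes with trend) for the 11905 genes that reached 0.5 FPKM in 2 or more libraries. All 6 libraries entered 1 fit with 3 residual degrees of freedom. The values as deposited are not counts, and reads recovered from them were fitted with limma's voom as an alternative. Each comparison had its own Benjamini-Hochberg adjustment, and calls required both an adjusted p below 0.05 and a 1.5-fold change or more. Fold changes are on the log2(FPKM + 0.1) scale, which understates those of low genes. Depth was recovered from the FPKM steps of genes with few reads, all whole within 0.1 read. Tested on simulated data with changes planted in RANKL + LEA against RANKL, over 11905 genes, an adjusted p below 0.05, with no fold limit, was reached by 16 of 50 genes with a planted log2 change of 0.585, by 47 of 50 with one of 1, and by 6 of 11705 unchanged genes. The simulation drew each gene on its own, without shifts shared by the genes of a library, so its rates may not carry over to these libraries.

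Members and gene lists were chosen with earlier results of these data known. Library values are given for the members with the largest changes, those moving against the median, the most and least abundant, and at least 1 per complex, and at most 6 other genes of smallest p are named. Tomm22, Tomm5, Tomm6, Timm13, Timm8b, Timm10b, Timm29 and Tomm6os are given by their changes only. Promoter letters were counted in RefSeq windows of build GRCm38.p6. Protein sequences were not used here. Alternatives were another pseudocount, filter, scaling, test, fold limit, a replicate block and each library left out.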

Additional observations from a re-analysis of the deposited data

How the results depend on the processing

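For RANKL against no RANKL, 17 of the 23 member calls held under each of the alternatives that kept the fold limit or removed it, and Mtx1, Timm8a1, Tomm22, Tomm5, Tomm6 and Tomm6os lost theirs in at least 1. With a fold limit of 2, 2390 genes were called, 1178 higher and 1212 lower, with 7 members higher and 0 lower. With no fold limit 2 members were lower, as were 2891 of all tested genes. With 1 library left out, member medians ran from 0.49 to 0.83 on the log2 scale, and the sign turned for Dnajc19 (-0.31 to 0.19), Tomm34 (-0.15 to 0.060) and Tomm40l (-0.17 to 0.027), none of them called. For RANKL + LEA against RANKL, 751 genes were called, against 291 without the filter, 248 with a fold limit of 2 and 141 to 669 with 1 library left out. The share called higher was 71.9% (540 higher, 211 lower), and 57.2% under quantile normalization (439 higher, 328 lower). With no fold limit 3 members were lower, and no alternative with a fold limit called a member. The sign turned under median-ratio scaling for Timm50 (-0.012) and Tomm7 (-0.047), and under quantile normalization for Tomm7 (-0.025). With 1 library left out it turned for Dnajc19 (-0.045 to 0.0078), Pam16 (-0.096 to 0.063), Timm10 (-0.45 to 0.031), Timm10b (-0.22 to 0.040), Timm21 (-0.28 to 0.089), Timm29 (-0.20 to 0.092), Timm8a1 (-0.56 to 0.11), Tomm20 (-0.22 to 0.012), Tomm22 (-0.26 to 0.054), Tomm34 (-0.018 to 0.20), Tomm5 (-0.32 to 0.0035) and Tomm7 (-0.18 to 0.19). For RANKL + LEA against no RANKL, 1 member, Timm17b, was called lower under median-ratio scaling, quantile normalization or no fold limit, and 0 to 1 with 1 library left out. A fold limit of 2 gave 1662 genes, 972 of them higher and 690 lower, and 3 members higher. Median-ratio scaling turned Timm10b (-0.018), Tomm34 (-0.015) and Tomm40l (-0.048), and quantile normalization Tomm34 (-0.037) and Tomm40l (-0.066). With 1 library left out, member medians ran from 0.28 to 0.62, and the sign turned for Dnajc19 (-0.32 to 0.18), Timm10b (-0.056 to 0.14), Timm8b (-0.036 to 0.48), Tomm34 (-0.063 to 0.15) and Tomm40l (-0.090 to 0.11). The causes were not tested.

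Between same-numbered libraries, the correlation of deviations was 0.12 for RANKL + LEA and RANKL and -0.08 for RANKL and no RANKL. For RANKL + LEA and no RANKL it was -0.25. Whether same-numbered libraries were paired is not stated in the sources used here, and these values cannot settle it. With the replicate number as a block, 22 members were called higher and 1 lower with RANKL, where 2128 and 2115 of all tested genes were. For RANKL + LEA against RANKL 0 members were called either way, where 492 genes were higher and 185 lower. For RANKL + LEA against no RANKL 12 members were higher, as were 1840 of all tested genes. A block with the no RANKL numbers crossed, an alternative chosen after seeing the data, gave 22, 0 and 12 members higher in these comparisons. Over all tested genes it gave 2167, 693 and 1910 higher. Reads per tested member were 208 or more in every library.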
